A study of Mus musculus with 2 samples.

Results

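Metalloproteinases and their inhibitors are described here across the cell classes of mouse brain on day 3 after stroke. The members were the 9 genes whose symbols were listed as Mmp8, Mmp9, Mmp12, Mmp14, Mmp19, Adam8, Timp1, Timp2 and Timp3, of 31253 genes in the deposited single-cell RNA-seq tables. All 9 were found, and 6 encode proteases and 3 encode inhibitors. Infarcted tissue had been taken after transient middle cerebral artery occlusion (tMCAO), in which a large brain artery is blocked and reopened, and was digested with collagenase before BD Rhapsody libraries were made. The flox control (named WT in the design text) and the Hilpda cKO, a conditional knockout of a lipid droplet gene, each gave 1 library. Nothing in the labels states the Cre driver, the deleted exons, the age and sex of the mice or the number of animals pooled in a library.

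The flox library held 8593 barcodes and 67864602 UMIs (unique molecular identifiers, each counting 1 captured RNA), and the cKO library 7382 barcodes and 70665440 UMIs. After filters 8061 flox cells (median 6993 UMIs) and 6983 cKO cells (median 8747 UMIs) were kept, and the libraries shared 56 barcodes. Cells fell into 27 clusters, of which 26 were named by fixed marker genes into 16 classes written with "-like", and a cell was kept in its class with at least 2 of the class markers. A cluster led by haemoglobin genes stayed unnamed and held 2.84% of flox and 3.24% of cKO cells. Levels are CPM, the UMIs of a gene summed over the cells of a class in a library and scaled to the summed total, as counts per 1e6 UMIs. With 1 library per group there were no replicates and no tests were made, library preparation cannot be told apart from genotype, and intervals cover counting error only. Hilpda itself did not move one way: flox and cKO levels were 453 and 194 CPM in macrophage cluster 0 but 134 and 278 CPM in microglia cluster 2. Whether its counted RNA lies in the deleted part is not known here, so this does not check the labels.

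Matrix metalloproteinases (MMPs) are zinc enzymes that cut collagens, laminins, elastin and other matrix proteins, and most are secreted as inactive precursors. Mmp14 is anchored in the cell membrane, as is Adam8, a member of the related ADAM family that sheds cell surface proteins. The tissue inhibitors of metalloproteinases (TIMPs) bind the active site of MMPs. After stroke the family is known for its part in opening the blood-brain barrier, in the entry of leukocytes and in later remodelling.

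The 6 proteases share a catalytic site at which 3 histidines hold the zinc ion. The stretch coding for this site is shown because all 6 proteases share it, whichever class they were highest in. The sequences were read from GENCODE vM21 transcripts, 5′ to 3′ on the coding strand, with the 3 histidine codons in capitals.
Mmp8: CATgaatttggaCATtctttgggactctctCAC
Mmp9: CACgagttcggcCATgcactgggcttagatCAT
Mmp12: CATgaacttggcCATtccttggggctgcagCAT
Mmp14: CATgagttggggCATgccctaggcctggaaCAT
Mmp19: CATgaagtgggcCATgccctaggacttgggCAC
Adam8: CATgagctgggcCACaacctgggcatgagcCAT
Over these 33 bases any pair of the 6 genes had between 17 and 25 identical bases. The stretches were picked by a protein motif with fixed residues, so part of this identity was set in advance. The lowest was between Mmp8 and Adam8, and the highest were between Mmp9 and Mmp14 and between Mmp14 and Mmp19.

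The genes lie on 7 chromosomes of GRCm38. Mmp8 (ENSMUSG00000005800, chr9:7558456-7568485) and Mmp12 (ENSMUSG00000049723, chr9:7344381-7369499), both on the plus strand, belong to a cluster of MMP genes on chromosome 9. Mmp9 is on chromosome 2, Mmp14 on 14, Adam8 on 7, Timp2 on 11 and Timp1 on X, and Mmp19 and Timp3 are both on chromosome 10. Timp1 lies within Syn1 and Timp3 within Syn3 on the opposite strand, Mmp19 overlaps the antisense gene Gm47093, Mmp12 overlaps Mmp1b, and Timp2 overlaps Cep295nl on its own strand. No source used here says whether the counting used strand, so reads of overlapping pairs may have been placed on either gene. The synapsin gene Syn3 had 9 and 10 UMIs in endothelial cell-like cells, beside 2030 and 2670 of Timp3.

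**Figure D1:**
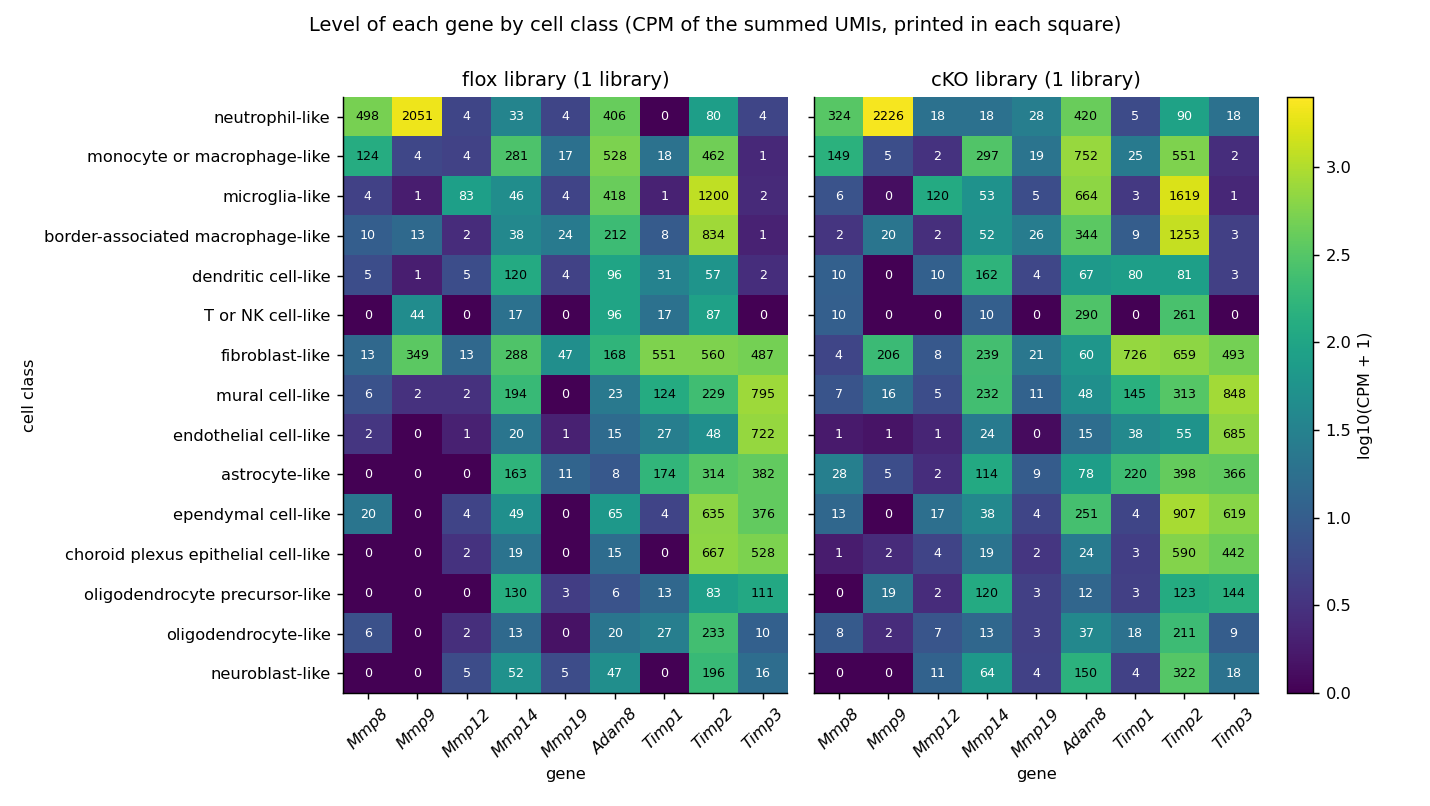
Level of each gene (columns) in 15 cell classes (rows) of the flox and the cKO library, as CPM of summed UMIs printed in each square and coloured on a log10 scale. Mmp9 peaked in neutrophil-like cells (2051 and 2226 CPM), Timp2 in microglia-like cells and Timp3 in mural and endothelial cell-like cells.

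Each member had its highest level in a limited set of classes, and that class was the same in both libraries for 7 of the 9 genes, the exceptions being Mmp14 and Mmp19. The classes held from 21 to 3574 flox cells and from 8 to 3033 cKO cells, and levels were ordered over the 15 classes that had 20 or more cells in both libraries. Levels are compared within a gene across classes, not between genes.

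Mmp9, gelatinase B, is stored in neutrophil granules and cuts basement membrane collagen. In neutrophil-like cells its flox level was 2051 CPM (95% interval 1873 to 2241, 490 UMIs in 197 cells) and its cKO level 2226 CPM (2082 to 2377, 886 UMIs in 283 cells). Those intervals overlapped, and both levels lay above every other class. With each cell thinned to 1000 UMIs, so that classes are read at equal depth, 76.3% of flox and 63.4% of cKO neutrophil-like cells had an Mmp9 UMI, with overlapping intervals, against 72.6% and 70.0% before thinning. As a background, 0 of 273 flox and 0 of 285 cKO oligodendrocyte-like cells had one after thinning, which allows up to 1.34% and 1.29%. Median depths were 1063 and 1300 UMIs in the neutrophil-like and 4828 and 5333 UMIs in the oligodendrocyte-like cells, and thinning left out 79 flox and 59 cKO neutrophil-like cells below 1000 UMIs.

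Fibroblast-like cells were second for Mmp9, at 349 CPM (flox) and 206 CPM (cKO). That level came from few cells, 6 of 29 in flox and 12 of 94 in cKO, and a single cell held 60 of the 81 flox UMIs and another 98 of the 245 cKO UMIs. Neutrophil markers in the same class summed to 43.1 and 42.8 CPM, with 6 of 10 detected in flox and 7 of 10 in cKO and Ly6g at 0 in both, and their part was not tested. Monocyte or macrophage-like cells were at 4.26 and 5.48 CPM, but within them cluster 6, led by Slfn4, Ms4a4c and Rsad2, stood at 10.6 CPM (flox) and 29.2 CPM (cKO) (43 and 67 UMIs, log2 ratio 1.46, 0.89 to 2.05). Border-associated macrophage-like cells, which line vessels and meninges, were at 13.4 and 20.1 CPM.

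Mmp8, neutrophil collagenase, was also highest per UMI in neutrophil-like cells, at 498 CPM in flox (413 to 596) and 324 CPM in cKO (271 to 385). These 2 intervals did not overlap, and flox was the higher. Its UMIs sat in few neutrophils, with 32 of 197 flox cells and 41 of 283 cKO cells positive. Most Mmp8 RNA lay elsewhere, since monocyte or macrophage-like cells, at 124 and 149 CPM, held 93.6% of the flox and 92.95% of the cKO UMIs of the gene. There 9.72% of flox and 11.04% of cKO cells had an Mmp8 UMI after thinning, against 0.366% and 0.351% of oligodendrocyte-like cells. Beside this, the 10 neutrophil markers summed to 122 and 119.7 CPM in the monocyte or macrophage-like cells and to 32807 and 23676 CPM in the neutrophil-like cells, and 9 of the 10 were detected in the former in both libraries, Ly6g being at 0. Their part in the Mmp8 level was not tested. Among macrophage clusters Mmp8 ran from 55.4 and 77.0 CPM in cluster 7, led by Plac8, Ccr2 and Ifitm6, to 201 and 217 CPM in cluster 3, led by Fabp4, Pdpn and Arg1.

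Mmp12, macrophage elastase, was a gene of a subset of microglia here. Microglia-like cells were at 83.0 CPM in flox (79.3 to 86.9) and 120.2 CPM in cKO (116 to 125), while monocyte or macrophage-like cells were at 3.63 and 2.12 CPM. No other ordered class passed 20 CPM in either library. With doublets kept, the highest flox level was in neuroblast-like cells instead. Microglia-like cells held 85.8% and 91.3% of all Mmp12 UMIs. Only 13.9% of flox and 20.4% of cKO microglia-like cells had a UMI, 3.72% and 4.73% after thinning with overlapping intervals, against 0.366% and 0.351% in oligodendrocyte-like cells (median depth of microglia-like cells 9172 and 14728 UMIs). The 214 flox and 140 cKO microglia-like cells with the most Mmp12, 1 in 10 of the class, held 95.6% and 91.1% of its UMIs, and the highest cells had 85 and 151 UMIs. For Timp2 the same number of top cells held 36.9% and 30.8%.

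Within the microglia the level differed widely between clusters, which were formed with Mmp12 left out of the clustering genes. Cluster 4, led by Siglech, Slc2a5 and P2ry12, genes known from homeostatic microglia, was at 3.18 CPM (flox) and 1.13 CPM (cKO). Cluster 2, led by Mmp12 itself with Cd5l and Mcpt4, was at 112 and 166 CPM, and cluster 5, led by the cell cycle genes Top2a, Ccna2 and Birc5, at 86.1 and 84.3 CPM. Between libraries (log2 ratio of cKO over flox) cluster 2 was at 0.56 (0.46 to 0.67) and cluster 5 at −0.03 (−0.19 to 0.13). The unnamed cluster led by Hba-a2, Hbb-bs and Hba-a1 had 356 CPM in flox and 154 CPM in cKO, from 161 and 88 UMIs at a low median depth of 842 and 984 UMIs per cell. In that cluster Timp1 had 1 UMI in flox (229 cells) and 97 UMIs in cKO (226 cells). How many cells held these UMIs was not counted, so a few cells may carry them.

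Mmp14 (MT1-MMP), the membrane-bound collagenase, was spread over more classes than the other MMPs. Monocyte or macrophage-like cells were at 281 CPM in flox (275 to 287) and 297 CPM in cKO (291 to 303). Fibroblast-like cells were at 288 CPM (224 to 366) and 239 CPM (212 to 269), which did not differ beyond counting error from macrophages in flox and lay below them in cKO. Mural cell-like cells, the pericytes and smooth muscle of vessels, were at 194 and 232 CPM, dendritic cell-like cells at 120.2 and 162 CPM, and oligodendrocyte precursor-like cells at 129.7 and 119.7 CPM. Microglia-like cells were at 45.8 and 52.8 CPM, below macrophages in both libraries, so Mmp14 and Mmp12 fell on opposite sides of these 2 myeloid classes. Unlike Mmp12, Mmp14 was detected broadly in its main class, in 78.9% of flox and 83.6% of cKO macrophages. All 5 macrophage clusters lay between 248 and 369 CPM, with cluster 1 (339 and 352 CPM) and cluster 6 (308 and 369 CPM) at the top.

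Mmp14 is known to activate the precursor of Mmp2 (gelatinase A) on the cell surface with the help of Timp2. Fibroblast-like cells held all 3, with Mmp2 at 138 and 113 CPM beside the Mmp14 levels above and Timp2 at 560 and 659 CPM. So did oligodendrocyte precursor-like cells of cKO, which had nominally the highest Mmp2 of that library at 121 CPM (70 UMIs in 38 cells), near the 113 CPM of fibroblast-like cells. Their Mmp14 was at 119.7 CPM and their Timp2 at 123 CPM. Macrophage-like cells had Mmp14 and Timp2 but Mmp2 at only 4.55 and 3.86 CPM. In microglia-like cells Mmp2 was at 33.2 CPM (flox) and 19.3 CPM (cKO).

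Mmp19 was low in every class. Fibroblast-like cells were at 47.4 and 21.0 CPM, from 11 and 25 UMIs, border-associated macrophage-like cells at 24.1 and 25.8 CPM and monocyte or macrophage-like cells at 17.1 and 19.2 CPM, with overlapping intervals between neighbours in this order. Neutrophil-like cells of cKO were nominally the highest in that library at 27.6 CPM, from 11 UMIs in 7 cells, against 1 UMI in flox. In all, 76.1% of flox and 71.5% of cKO Mmp19 UMIs were in monocyte or macrophage-like cells, and within those cluster 7 was the highest at 37.1 and 42.3 CPM.

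Adam8, a leukocyte protease that sheds adhesion molecules and receptors, had its highest levels in the macrophage, microglia and neutrophil classes. It stood at 528 CPM (flox) and 752 CPM (cKO) in monocyte or macrophage-like cells, at 418 and 664 CPM in microglia-like cells, at 406 and 419.6 CPM in neutrophil-like cells and at 212 and 344 CPM in border-associated macrophage-like cells. Dendritic cell-like cells were lower, at 95.8 and 66.9 CPM. Monocyte or macrophage-like cells held 60.9% and 60.4% of all Adam8 UMIs and microglia-like cells 35.2% and 34.8%. Among microglia, cluster 4 was the exception at 21.4 and 20.9 CPM, against 573 and 847 CPM in cluster 2. Among macrophages Adam8 was lowest in cluster 7 (242 and 335 CPM) and highest in cluster 3 (862 and 1115 CPM).

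Outside phagocytes Adam8 levels often came from 1 cell. A single cell held 36 of the 39 UMIs of flox fibroblast-like cells, 40 of the 60 of cKO ependymal cell-like cells, 33 of the 42 of cKO neuroblast-like cells and 23 of the 30 of cKO T or NK cell-like cells. Endothelial cell-like cells were at 14.6 and 15.4 CPM and oligodendrocyte-like cells at 19.9 and 37.2 CPM. Beside these low levels, the monocyte or macrophage markers summed to 2805 and 2950 CPM in endothelial cell-like and 590.1 and 374 CPM in oligodendrocyte-like cells. All 12 markers were detected in both classes. In monocyte or macrophage-like cells the same list summed to 9312 and 10235 CPM. The sums do not tell macrophage RNA from RNA that a class makes itself, and their part in the result was not tested.

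**Figure D2:**
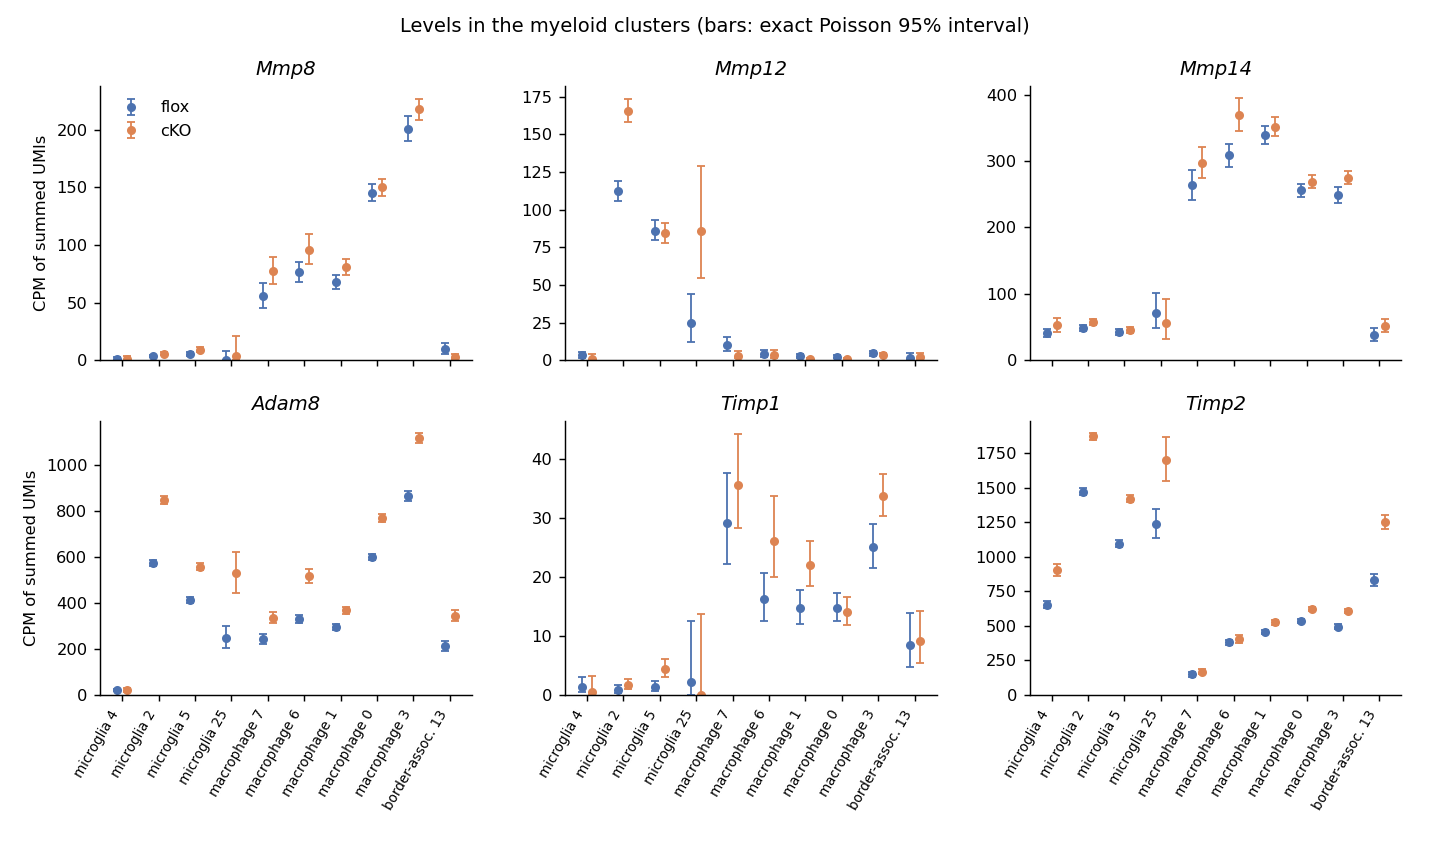
Levels (CPM, vertical axes from 0, a separate scale per gene) in 4 microglia clusters, 5 macrophage clusters and the border-associated macrophages, for the flox and cKO libraries, with exact Poisson 95% intervals. Mmp12 rose above 20 CPM only in microglia clusters 2, 5 and 25, Mmp8 and Mmp14 were higher in all 5 macrophage clusters than in any microglia cluster shown, and Adam8 was at 21.4 and 20.9 CPM in microglia cluster 4 against 248 CPM or more in the other 3 microglia clusters.

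Timp1, the inducible inhibitor of the family, was highest in stromal cells. Fibroblast-like cells were the highest, at 551 CPM in flox (460 to 655, 128 UMIs) and 726 CPM in cKO (678 to 776, 865 UMIs). A single flox cell held 71 of the 128 UMIs, while in cKO 67 of 94 cells were positive. Astrocyte-like cells followed at 174 and 220 CPM and mural cell-like cells at 124 and 145 CPM. Monocyte or macrophage-like cells were low at 18.3 and 24.5 CPM, yet by their number they held 54.6% of flox and 32.9% of cKO Timp1 UMIs. Fibroblast-like cells held 12.5% and 36.7%, and made up 0.36% of flox and 1.35% of cKO cells. In endothelial cells Timp1 was at 37.4 and 42.1 CPM in cluster 8, led by Tmem252, Ackr1 and Clec14a, and at 4.52 and 8.80 CPM in cluster 14, led by Spock2, Slco1a4 and Flt1.

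Timp2, which both inhibits MMPs and takes part in activating Mmp2, was highest in microglia. Microglia-like cells were at 1199.7 CPM in flox (1185 to 1214) and 1619 CPM in cKO (1602 to 1637), and border-associated macrophage-like cells at 834 and 1253 CPM. Lower levels were seen in monocyte or macrophage-like cells, at 462 and 551 CPM, and neutrophil-like and dendritic cell-like cells lowest among the leukocytes of the classes compared, between 56.9 and 90.4 CPM. Detection was near complete in microglia, at 92.5% of flox and 97.5% of cKO cells, and 56.9% and 68.0% after thinning. Timp2 was also present in microglia cluster 4, where Mmp12 and Adam8 were low, at 653 and 905 CPM, below the 1473 and 1873 CPM of cluster 2. Among macrophages it was lowest in cluster 7 (150.0 and 168 CPM), the cluster led by the monocyte genes Plac8 and Ccr2, and at 536 and 625 CPM in cluster 0, led by Gpnmb, Mgst1 and C77080. Ependymal and choroid plexus epithelial cell-like cells, which line the ventricles, and fibroblast-like cells lay between 560 and 907 CPM.

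Timp3, which binds to the matrix and also inhibits ADAM enzymes, was low in leukocytes. Mural cell-like cells were at 795 CPM in flox (718 to 879) and 848 CPM in cKO (783 to 916), and endothelial cell-like cells at 722 and 685 CPM. Fibroblast-like cells (487 and 493 CPM), choroid plexus epithelial cell-like cells (528 and 442 CPM), ependymal cell-like cells (376 and 619 CPM) and astrocyte-like cells (382 and 366 CPM) followed. Levels were 1.47 and 1.804 CPM in monocyte or macrophage-like cells and 1.57 and 1.36 CPM in microglia-like cells. The 2 endothelial clusters differed, with 1329 and 1547 CPM in cluster 14 and 443 and 572 CPM in cluster 8. Timp1 and Timp3 thus ran in opposite directions over these 2 clusters in both libraries.

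**Figure D3:**
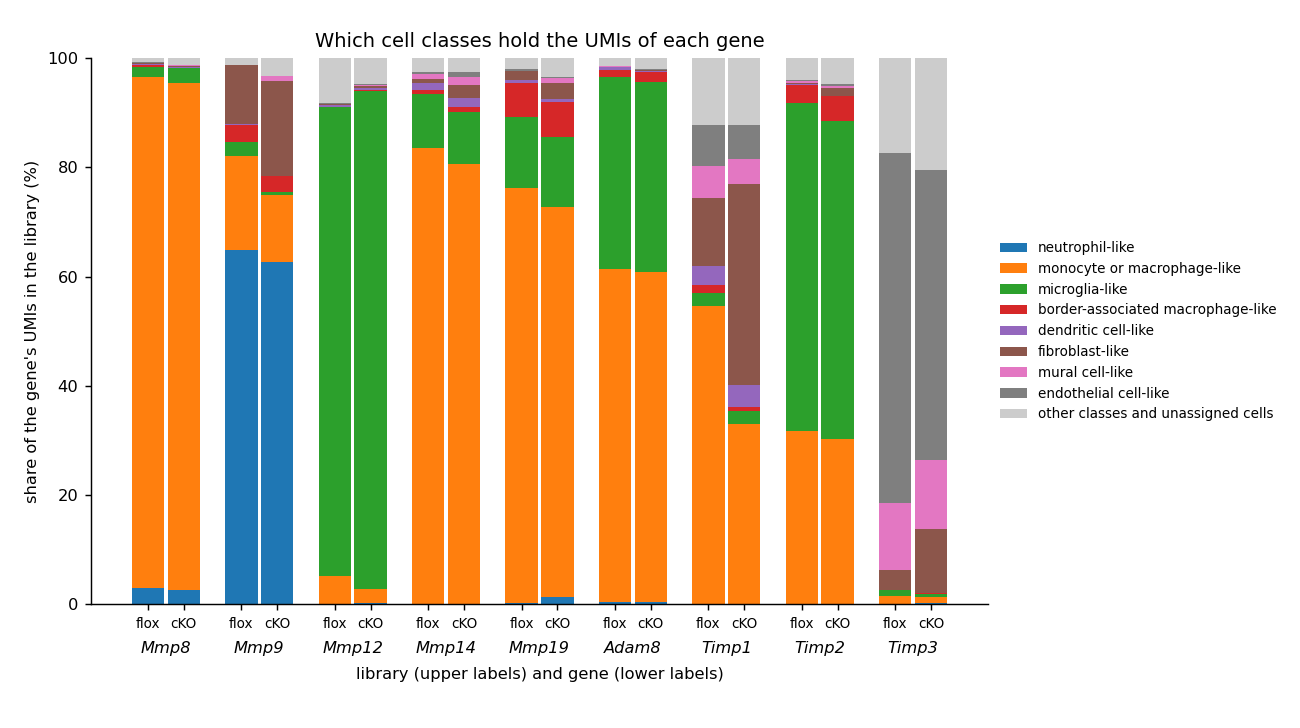
Share of each gene's UMIs (vertical axis, percent of all its UMIs in the library) held by 8 cell classes, for each gene and library. Monocyte or macrophage-like cells held most Mmp8, Mmp14, Mmp19 and Adam8, microglia-like cells most Mmp12 and Timp2, and endothelial cell-like cells most Timp3 (64.2% and 53.2%).

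The neighbours of Mmp8 and Mmp12 on chromosome 9 were looked at because nearby genes of 1 family had different home classes, a choice made after the values were seen. Mmp27, next to Mmp8, was a macrophage gene at 28.1 and 25.5 CPM (859 and 806 UMIs), and in cluster 7, where Mmp8 was at 55.4 and 77.0 CPM, it had only 2 and 3 UMIs. Mmp3 (stromelysin 1) lay in fibroblast-like cells, at 172 and 355 CPM. Mmp10, which like Mmp3 lies between Mmp12 and Mmp8, was also highest there, at 64.6 and 15.1 CPM (15 and 18 UMIs). Mmp13 (collagenase 3) was low, at 6.12 and 1.30 CPM in macrophages and 4.67 and 2.28 CPM in microglia. Nearby genes of the family thus had their highest levels in neutrophils (Mmp8), macrophages (Mmp27), microglia (Mmp12) and fibroblasts (Mmp3 and Mmp10).

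The promoters of Mmp8 and Mmp12 are shown for this contrast, as the 250 bases before each RefSeq start on the plus strand of GRCm38.p6. The table of promoters held 8 windows for 7 members, and none for Mmp9 and Mmp19. Matches to GAGGAA (the core bound by the myeloid factor PU.1) and TGANTCA (the AP-1 site), searched on both strands, are in capitals. Among 32851 promoter windows of that length 23.3% held GAGGAA and 6.75% held TGANTCA, and the motifs do not overlap each other.
Mmp8, chr9:7558179-7558428: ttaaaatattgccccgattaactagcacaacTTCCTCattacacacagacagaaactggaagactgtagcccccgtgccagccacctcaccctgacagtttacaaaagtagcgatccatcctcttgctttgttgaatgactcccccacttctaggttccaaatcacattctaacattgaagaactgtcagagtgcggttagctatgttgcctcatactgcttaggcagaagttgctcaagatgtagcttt
Mmp12, first start, chr9:7344147-7344396: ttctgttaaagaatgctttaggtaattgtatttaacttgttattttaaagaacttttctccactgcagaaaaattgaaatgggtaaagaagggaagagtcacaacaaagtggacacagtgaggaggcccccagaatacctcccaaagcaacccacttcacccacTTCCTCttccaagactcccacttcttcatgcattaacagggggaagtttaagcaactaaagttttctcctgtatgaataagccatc
Mmp12, second start, chr9:7347124-7347373: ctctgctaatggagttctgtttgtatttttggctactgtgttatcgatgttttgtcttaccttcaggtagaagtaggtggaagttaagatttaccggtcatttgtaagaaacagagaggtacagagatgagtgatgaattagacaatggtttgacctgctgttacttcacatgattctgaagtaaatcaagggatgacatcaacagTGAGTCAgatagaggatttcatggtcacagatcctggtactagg
Mmp8 had GAGGAA at 219 bases and Mmp12 at 86 bases before the start, in both cases read on the opposite strand. The second Mmp12 start had TGANTCA at 44 bases. No window of Adam8, Mmp14, Timp1, Timp2 or Timp3 held either motif. A match describes letters only.

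The second question of the design was whether levels differed between the Hilpda cKO and the flox library. Only the 8 classes that held 100 or more cells in both libraries entered, and a member was measured in a class if both libraries together had 30 or more of its UMIs, which gave 47 ratios. To be called, a ratio had to reach 2-fold with a 95% interval that excluded equal levels. This size rule was passed by 3 of the 47 ratios, all higher in cKO, and by none as lower in cKO. Over all measured genes of a class, from 5.46% (dendritic cell-like) to 8.12% (endothelial cell-like) were called either way. From 0.755% (microglia-like) to 2.65% (neutrophil-like) were called higher, and from 3.76% (neutrophil-like) to 7.33% (endothelial cell-like) lower. The 3 of 47 is near the share called either way, and is not read as a result about the members.

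Timp1 in dendritic cell-like cells was the firmest of the 3. It had 34 UMIs in 241 flox cells and 95 UMIs in 222 cKO cells, or 30.7 and 80.5 CPM (log2 ratio 1.39, 0.81 to 1.999). This was 1 of 4 members measured in the class, where 0.778% of 6684 genes were called higher, 4.68% lower and 5.46% either way. Both dendritic clusters had more in cKO, at 34.9 and 88.2 CPM in cluster 12 and at 0 UMIs in flox and 8 UMIs in cKO in cluster 23. The shares of cells after thinning were 2.53% (0.93% to 5.43%) and 5.02% (2.53% to 8.81%), with overlapping intervals. Fibroblast markers in the class summed to 15.4 CPM, with 3 of 7 detected, and 22.0 CPM, with 6 of 7, and their part was not tested.

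Timp1 in microglia-like cells passed the rule from a near-absent level, 1.12 CPM (25 UMIs) against 2.61 CPM (54 UMIs), with a log2 ratio of 1.22 (0.51 to 1.97). It was 1 of 8 members measured, and 0.755% of 11526 genes were called higher, 5.8% lower and 6.55% either way. After thinning 4 of 2125 flox and 1 of 1396 cKO cells had a UMI, so the share did not follow. With each cell given the same weight the ratio was 0.77, with doublets kept 0.88, and relative to the other classes 0.90, all under 2-fold. Elsewhere, below 2-fold, Timp1 was higher in monocyte or macrophage-like (0.42, 0.26 to 0.58) and endothelial cell-like cells (0.50, 0.09 to 0.92). In oligodendrocyte-like cells it was lower (−0.64, −1.25 to −0.04).

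Adam8 in mural cell-like cells was at 22.7 CPM (11 UMIs in 5 cells) and 48.2 CPM (36 UMIs in 11 cells), a log2 ratio of 1.09 (0.08 to 2.21). It was 1 of 5 members measured, and 2.56% of 5857 genes were called higher, 4.54% lower and 7.1% either way. With each cell given the same weight it had the opposite sign (−0.68), it was 0.51 with a mitochondrial limit of 10%, and 2.54 at clustering resolution 2. The monocyte or macrophage markers in the class summed to 1510 and 1460 CPM and the microglia markers to 6713 and 8664 CPM. Microglia-like cells themselves had 10418 and 8377 CPM by the microglia list. The sum alone thus does not tell microglial RNA from RNA that mural cells make themselves, and its part was not tested.

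**Figure D4:**
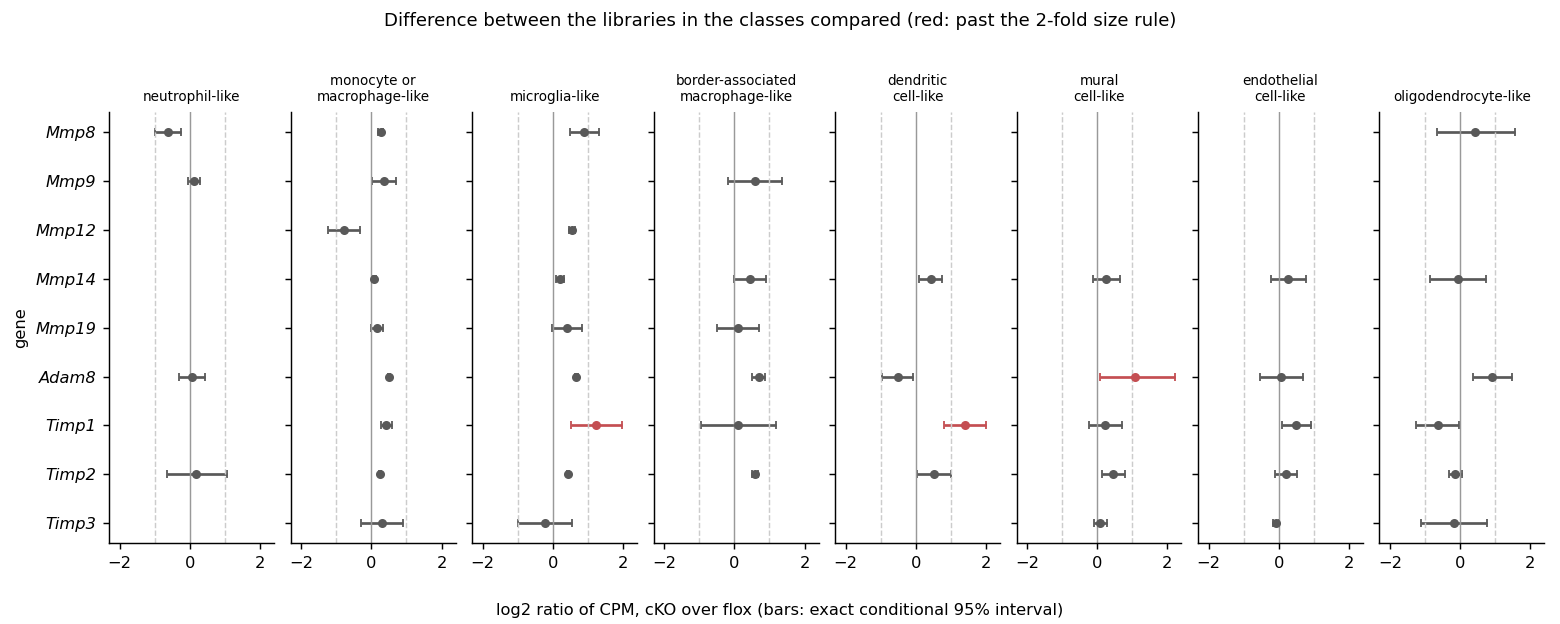
Log2 ratio of CPM in cKO over flox (horizontal axis) for the members with at least 30 UMIs in each of the 8 classes compared, with exact conditional 95% intervals. Dashed lines mark 2-fold, and the red points are the 3 ratios past the size rule.

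Below 2-fold, several abundant members differed by more than counting error. Adam8 was higher in cKO in border-associated macrophage-like (log2 ratio 0.70, 0.51 to 0.88), microglia-like (0.67, 0.63 to 0.71) and monocyte or macrophage-like cells (0.51, 0.48 to 0.54), and these ratios were above those of 96.1%, 97.5% and 95.1% of measured genes in those classes. Outside the phagocytes it was also higher in oligodendrocyte-like cells (0.90, 0.36 to 1.47, above 98.3% of genes), from 43 and 87 UMIs. In neutrophil-like cells the interval included equal levels (0.05, −0.32 to 0.42), and in dendritic cell-like cells Adam8 was lower (−0.52, −0.96 to −0.08). All 5 macrophage clusters were higher in cKO, from 0.32 in cluster 1 to 0.65 in cluster 6. Microglia clusters 2 (0.56) and 5 (0.43) were higher too, while the interval of cluster 4 included equal levels (−0.04, −0.64 to 0.54). Cluster 4, with little Adam8, held 754 of 2135 flox but 290 of 1403 cKO microglia-like cells. The part of this difference in the microglia-like ratio and in the shares below was not tested. After thinning 19.8% of flox and 29.2% of cKO microglia-like cells and 31.5% and 41.3% of macrophage-like cells had an Adam8 UMI, with intervals that did not overlap. Median depth was 9172 and 14728 UMIs in microglia-like and 7977 and 10061 UMIs in macrophage-like cells. Relative to the median of the other classes compared, the ratio was 0.16 in microglia-like and −0.16 in macrophage-like cells, so the sign in macrophages depended on that scaling.

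Timp2 was higher in cKO in border-associated macrophage-like (0.59, 0.49 to 0.68), microglia-like (0.43, 0.41 to 0.46) and monocyte or macrophage-like cells (0.25, 0.22 to 0.29). This was not particular to them, since Timp2 was also higher in dendritic cell-like (0.51, 0.04 to 0.996) and mural cell-like cells (0.45, 0.12 to 0.79). In microglia it held in each large cluster, at 0.35 in cluster 2, 0.37 in cluster 5 and 0.47 in cluster 4. Cluster 4 held 754 of 2135 flox and 290 of 1403 cKO microglia-like cells. Relative to the other classes Timp2 was at 0.18 in microglia-like and −0.18 in macrophage-like cells. The interval included equal levels in oligodendrocyte-like (−0.14, −0.32 to 0.04), endothelial cell-like (0.20, −0.12 to 0.52) and neutrophil-like cells (0.19, −0.65 to 1.07).

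For Timp3 the endothelial class and its clusters gave different signs. In endothelial cell-like cells as a whole it was at 722 and 685 CPM (−0.08, −0.16 to 0.01). Cluster 8 was higher in cKO (0.37, 0.25 to 0.49), and so was cluster 14 (0.22, 0.08 to 0.36). Cluster 14, with the higher Timp3, held 237 of 564 flox but 98 of 537 cKO endothelial cell-like cells. In mural cell-like cells the interval included equal levels (0.09, −0.09 to 0.28).

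Among the MMPs, Mmp8 was lower in cKO in neutrophil-like cells (−0.62, −0.99 to −0.25) and higher in monocyte or macrophage-like (0.26, 0.20 to 0.32) and microglia-like cells (0.89, 0.48 to 1.31), the last from 78 and 134 UMIs. For Mmp9 in neutrophil-like cells the interval included equal levels (0.12, −0.04 to 0.28). Mmp12 was higher in microglia-like (0.53, 0.45 to 0.62) and lower in monocyte or macrophage-like cells (−0.78, −1.24 to −0.33). In the latter it had 111 and 67 UMIs, at 3.63 and 2.12 CPM, beside 1.85 and 6.84 CPM in oligodendrocyte-like cells. Mmp14 in monocyte or macrophage-like cells differed little (0.08, 0.04 to 0.12), although its interval excluded equal levels. It was also higher in microglia-like (0.21, 0.08 to 0.33), dendritic cell-like (0.43, 0.10 to 0.76) and border-associated macrophage-like cells (0.45, 0.0006 to 0.91). In mural, endothelial and oligodendrocyte-like cells the Mmp14 interval included equal levels. No member was called in the other 5 classes. There the share of genes called higher, lower and either way was 2.65%, 3.76% and 6.41% in neutrophil-like cells, 0.781%, 5.3% and 6.08% in monocyte or macrophage-like cells, and 1.34%, 4.91% and 6.25% in border-associated macrophage-like cells. It was 0.794%, 7.33% and 8.12% in endothelial cell-like cells and 1.12%, 5.01% and 6.13% in oligodendrocyte-like cells. The median log2 ratio of the measured members beside that of all measured genes was 0.26 beside 0.01 in monocyte or macrophage-like cells (9 members), 0.48 beside −0.03 in microglia-like cells (8 members) and 0.51 beside −0.01 in border-associated macrophage-like cells (6 members). It was 0.47 beside −0.04 in dendritic cell-like (4 members), 0.26 beside 0.03 in mural cell-like (5 members) and 0.20 beside −0.11 in endothelial cell-like cells (5 members). In neutrophil-like cells it was near that of all genes, at 0.08 beside 0.04 (4 members), and in oligodendrocyte-like cells it was below, at −0.10 beside −0.01, with 2 of 6 members above 0.

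Over all kept cells pooled, all 9 members were higher in cKO with intervals that excluded equal levels. Pooled ratios were made for the members only, so no share over all genes stands beside this count. At this depth even a small ratio excluded equal levels, as for Mmp14 (0.10, 0.06 to 0.14). The count is therefore not read as a result about the members. Timp1 (15.9 and 34.6 CPM, log2 ratio 1.12), Mmp9 (11.8 and 20.8 CPM, 0.82), Timp3 (49.1 and 73.9 CPM, 0.59) and Adam8 (411 and 579 CPM, 0.49) had the largest ratios, and the other 5 members lay between 0.10 for Mmp14 and 0.29 for Timp2. Class frequencies differed between the libraries too. Neutrophil-like cells were 2.44% of flox and 4.05% of cKO cells, fibroblast-like cells 0.36% and 1.35%, endothelial cell-like cells 6.997% and 7.69%, and monocyte or macrophage-like cells 44.3% and 43.4%. The part of these frequencies in the pooled ratios was not tested.

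Other genes of the pathway came from fixed lists. Of 13 other MMPs, between 1 and 4 were measured in 7 of the 8 classes, and the calls were Mmp13 as lower in cKO in microglia-like (−1.04, −1.57 to −0.53) and in monocyte or macrophage-like cells (−2.24, −2.76 to −1.74). The most abundant of that list by UMIs were Mmp2, given above, and Mmp15, a membrane MMP highest in oligodendrocyte precursor-like cells at 263 and 304 CPM. Of 9 other ADAM genes, Adam15 was lower in 7 of the 8 classes, for example at 405 and 101 CPM in microglia-like cells (−1.998) and 654 and 169 CPM in endothelial cell-like cells (−1.95). Adam17 and Adam9, the sheddases with the most UMIs, were not called in any class. Of 9 ADAMTS genes, Adamts4 was called higher in monocyte or macrophage-like cells and Adamts10 lower in 3 classes, while Adamts1, the most abundant, was highest in mural cell-like cells at 663 and 726 CPM. Of 5 genes listed as other protease inhibitors, not all of them of metalloproteinases, only the membrane inhibitor Reck was called, as lower in mural cell-like cells. The 2 with the most UMIs were Serpine2 (34018 UMIs) and Tfpi2 (1642 UMIs). Tfpi2 was a fibroblast gene at 1330.4 and 1016 CPM. Of 11 plasminogen system and activator genes, Bsg was called lower and the Mmp9-binding Lcn2 higher in endothelial cell-like cells.

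The genes whose levels followed each member most closely were taken over 24 profiles (classes with at least 50 cells in a library, both libraries) and 13146 genes, as Pearson correlations of log2(CPM + 1). The profiles share libraries and depth, so the values are descriptions. Timp3 was closest to Yap1 (0.97), Lynx1 (0.95) and Serpinh1 (0.93), and Adam8 to Rab32 (0.95), Cd84 (0.95) and Tnf (0.93). Timp2 was closest to the lysosomal genes Ctsl (0.85) and Gaa (0.84) and to Cndp2 (0.81), Mmp8 to Tnfaip2, Cd177 and Msrb1 (0.88, 0.88 and 0.87), and Timp1 to Esd (0.85), Sphk1 (0.81) and Rps2 (0.81). For Mmp9 (Gm12840, Acpp and H2-Q10), Mmp12 (Adora3, Afp and Mymk), Mmp19 (Soat1, Fam20c and Etf1) and Mmp14 (Ckap4, Il6 and Lif) the values were between 0.69 and 0.87. Between members, the highest correlation was between Adam8 and Mmp19 (0.64) and the lowest between Adam8 and Timp3 (−0.71).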

How the data were processed

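The authors deposited 1 table of raw UMI counts per library, with genes as named in the tables. Per the submitters' processing notes CASAVA 1.8, STARsolo and Seurat were used with mm10, and the notes tie no step or setting to a tool. From these counts, barcodes under 500 UMIs, under 200 genes or over 25% mitochondrial UMIs were dropped, and doublets marked by Scrublet (214 flox, 143 cKO) were removed. Cells were clustered with scanpy 1.11.5 and leidenalg 0.10.2 (2000 variable genes without the members, 30 components, 20 neighbours, resolution 1) and named from 19 marker lists. The naming thresholds were set after the clusters were seen.

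UMIs were summed per class and library. Levels have exact Poisson and shares exact Clopper-Pearson 95% intervals, and ratios exact conditional 95% intervals, and none of these intervals includes biological spread. No p-value was computed, since a group is a single library. A promoter or coding sequence was read from RefSeq or GENCODE vM21. Calculations were tested on simulated data. The text names all 9 members, the 3 genes most like each, and from each related list the 2 with the most UMIs and those called, except for an item not reported here. Members and lists were chosen with earlier results of these data known. Alternatives were a 10% mitochondrial limit, doublets kept, other resolutions and gates, TMM scaling (edgeR 4.0.16), equal weight per cell, other minimums, GC bins and ratios relative to other classes.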

Additional observations from a re-analysis of the deposited data

How the results depend on the processing

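Of the 47 ratios, 3 passed the size rule. The total was also 3 with a 10% mitochondrial limit, at resolutions 0.5 and 2, and with no gate or 3 gate markers. It was 3 with TMM scaling and with GC bins as well. An equal total does not mean the same ratios. Adam8 in mural cell-like cells fell below 2-fold with the 10% mitochondrial limit, and Timp1 in microglia-like cells did so with doublets kept. The number was 5 with doublets kept, 7 with a minimum of 10 UMIs and 0 with a minimum of 100 CPM (19 ratios). It was 4 relative to other classes and 2 when every cell had equal weight. No share over all genes at these settings stands beside the counts, so they are not read as a result about the members. Timp1 in dendritic cell-like cells stayed between 1.06 and 1.44 on the log2 scale under all of them, and was not called at the minimum of 100 CPM. Adam8 in mural cell-like cells reversed to −0.675 with equal weight per cell, and the cause was not tested. Of the ratios, 37 of 47 lay within their main interval with equal weight, and 23 of 39 relative to other classes, where 11 changed sign. The highest class was the same in 15 of 18 gene and library pairs with equal weight and with doublets kept. The changes were in Mmp14 and Mmp19 and, with doublets kept, in flox Mmp12, from microglia-like to neuroblast-like cells. Low depth limits Mmp19, and Mmp9 outside neutrophils. No paired analysis was possible because each group has 1 library.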
